A study of Rattus norvegicus with 9 samples.

Results

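Mki67, Cdk1, Pcna, Ccnd1 and Myc, 5 genes of cell proliferation, were followed in endothelial cells cultured from the rat renal artery, whose lumen these cells line. They were chosen by name, by a rule that uses no measured value, though with earlier results of these data known, and found in the gene table by Ensembl identifier, 5 of 32883 genes listed. The table pairs its identifiers with no symbols, so the names rest on the identifiers ENSRNOG00000028137 (Mki67), ENSRNOG00000000632 (Cdk1), ENSRNOG00000021264 (Pcna), ENSRNOG00000020918 (Ccnd1) and ENSRNOG00000004500 (Myc). For the same reason the labelled cell type was not checked against endothelial markers here, and other genes of the cell cycle were not scored.

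The series asks whether calycosin combined with tanshinone IIA changes the response of these cells to angiotensin II, a peptide hormone that raises blood pressure. Total RNA was sequenced from 3 groups of 3 libraries each, labelled Normal, Model and Calycosin and Tanshinone IIA (the treated group). The labels give Model no agent, and only the series title ties it to angiotensin II; whether the treated cells also received it is not stated, nor are doses and times. All groups were grown in medium with 10% fetal bovine serum and used at passages 2 to 8, so every group received the growth factors of serum. Cells were passaged when the monolayer covered 75% to 85% of the dish, and the density at harvest is not stated.

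A cell that divides passes from the first gap phase into DNA replication and then through a second gap into mitosis. Growth factors induce Myc and cyclin D1, which act early in this sequence, while genes for replication and mitosis are switched on later. In the wall of a healthy artery most endothelial cells rest, whereas in serum-fed culture a large share of them cycles. In bulk RNA, fewer cycling cells and less of a transcript per cycling cell cannot be told apart.

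The promoters of mitotic genes are known for 2 kinds of sequence: the cell cycle genes homology region (CHR), read by the MuvB complexes that repress such genes in resting cells and activate them before mitosis, and CCAAT boxes, bound by NF-Y. Genes of DNA replication are known for E2F sites. RefSeq promoter windows (build GRCr8, 250 bases before to 50 after the start of the gene) matched 3 of the 5 genes: Mki67, Cdk1 and Pcna. Their last 150 bases before the start are shown because they let the letters of these motifs be set beside how the genes varied. The motifs searched on both strands were TTTGAA (CHR), CCAAT, and TTTGGCGC, TTTGCCGC, TTTCGCGC or TTTCCCGC (E2F). Capitals mark a match, read 5′ to 3′ on the strand of the gene, and ATTGG is the CCAAT box on the other strand.
Mki67 (chr1:199952594-199952743, minus strand): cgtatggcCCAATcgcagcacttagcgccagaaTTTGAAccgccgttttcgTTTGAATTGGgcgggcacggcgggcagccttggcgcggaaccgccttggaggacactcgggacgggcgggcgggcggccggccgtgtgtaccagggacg
Cdk1 (chr20:19265143-19265292, plus strand): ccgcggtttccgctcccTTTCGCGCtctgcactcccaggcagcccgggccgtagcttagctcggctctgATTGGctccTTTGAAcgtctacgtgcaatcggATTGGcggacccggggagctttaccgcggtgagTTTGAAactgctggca
Pcna (chr3:139955821-139955970, minus strand): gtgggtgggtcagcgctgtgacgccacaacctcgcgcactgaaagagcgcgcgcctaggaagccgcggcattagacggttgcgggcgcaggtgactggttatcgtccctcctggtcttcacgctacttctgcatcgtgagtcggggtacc

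Mki67 and Cdk1 each held TTTGAA 2 times in this stretch, at 117 and 99 bases before the start in Mki67 and at 72 and 16 bases before it in Cdk1. In Mki67 the TTTGAA nearer to the start shares its last base with a CCAAT box. Cdk1 also held the E2F letters TTTCGCGC, 133 bases before the start. Pcna held none of these motifs in the 150 bases shown, and 1 CCAAT box further upstream. Mki67 also had CCAAT boxes further upstream, at positions -189 and -167 from the start, and Cdk1 at -210. Background shares were taken over all 33469 RefSeq windows of 300 bases, a longer stretch than the 150 bases shown. Of these windows 18.3% held TTTGAA, 37.5% a CCAAT box and 2.14% one of the E2F spellings. The Myc and Max E-box CACGTG, held by 6.42% of all windows, was in none of the 3.

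All 5 genes were well measured. The smallest count of any of them in any library was 254 (Myc) and the largest 13733 (Mki67), so counting error alone was 0.853% to 1.34% of the Mki67 level and 3.88% to 6.27% of the Myc level. In units of 1e6 counts, library totals ran from 7.98 to 18.3, and the treated group held both the shallowest libraries, 2 and 3, and the deepest, library 1. All 5 passed the low-count filter that kept 12943 genes. Separate cultures are not stated in the labels for the 3 libraries of a group. The p-values below therefore describe variation among the libraries sequenced, part or all of which may be technical.

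Per length and depth, in the FPKM the authors deposited (fragments per kilobase of transcript and per 1e6 fragments), the order of the genes was nearly the same in every library. Pcna, the ring-shaped clamp that holds DNA polymerase on its template, was highest in 9 of 9 libraries, at 102.1 to 119.2 FPKM. Mki67, whose protein Ki-67 coats mitotic chromosomes and is the usual stain for cycling cells, was at 55.3 to 84.7 FPKM. Cdk1, the kinase that drives entry into mitosis, was at 64.0 to 77.0 FPKM. Mki67 and Cdk1 could not be ranked: Mki67 was the higher in 4 libraries and Cdk1 in 5. Ccnd1, which encodes cyclin D1, the partner of kinases that drive a cell through the first gap phase, followed at 38.3 to 46.3 FPKM. Myc, a transcription factor for growth and biosynthesis, was lowest at 7.28 to 10.8 FPKM. Pcna lay above 94.8% of the tested genes, Mki67 above 91.6%, Cdk1 above 91.1%, Ccnd1 above 84.4% and Myc above 39.3% by mean FPKM.

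**Figure D1:**
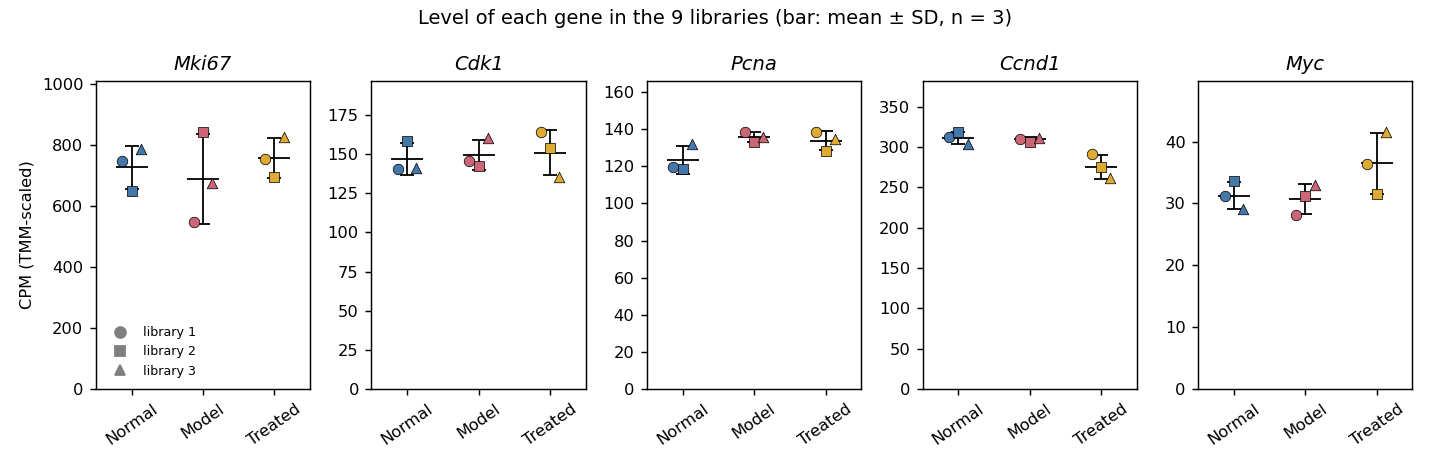
Level of each gene in counts per 1e6 counts (CPM, y axis from 0, its own scale for each gene) in the Normal, Model and treated groups; symbols are single libraries and bars the mean ± SD of 3. Ccnd1 lies lower in the 3 treated libraries, at 261.3 to 291.2 CPM, than in the other 6, and Mki67 spreads from 547.5 to 840.7 CPM within Model.

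Tests of the 5 genes between groups gave no call. Each gene was compared in 3 pairs of groups with edgeR's quasi-likelihood test, fitted on all genes and all 9 libraries, and 0 of the 15 differences passed a Benjamini-Hochberg adjusted p of 0.05. At an unadjusted edgeR p below 0.05 there was 1 gene between Model and Normal (Pcna), 2 between the treated group and Model (Ccnd1 and Myc) and 1 between the treated group and Normal (Ccnd1), where 4.25%, 12.6% and 18.5% of all tested genes were below it. By DESeq2 0 of the 5 genes were called in each comparison as well. The 95% intervals of the fold changes, which are not adjusted for the number of genes tested, all lay between 0.755-fold and 1.38-fold.

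**Figure D2:**
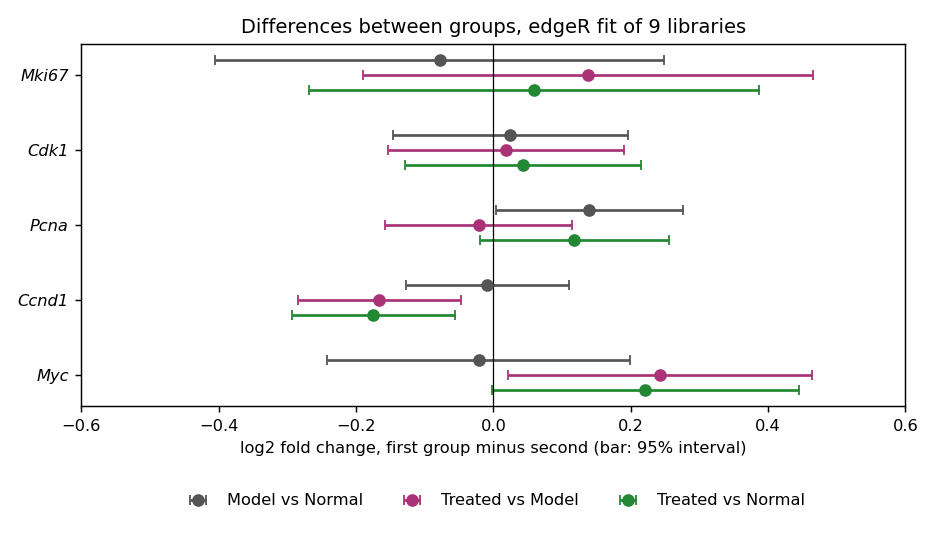
Log2 fold change (x axis, first group minus second) of the 5 genes in the 3 comparisons, with 95% intervals from the edgeR fit, not adjusted for multiple tests. The intervals of Ccnd1 are below 0 in both comparisons of the treated group, and the widest intervals are those of Mki67.

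Ccnd1, an early gene of the sequence, had the smallest p of the 5 in both comparisons of the treated group. In CPM scaled by TMM (trimmed mean of M-values), it was at 312.1, 318.3 and 304.2 in Normal libraries 1, 2 and 3, at 310.5, 306.8 and 311.7 in the Model libraries and at 291.2, 274.8 and 261.3 in the treated libraries. All 3 treated libraries were thus below all 6 others, while Normal and Model overlapped. The means were 311.6 ± 7.06 CPM for Normal, 309.7 ± 2.58 for Model and 275.8 ± 15.0 for the treated libraries (SD, n = 3).

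Against Model, the Ccnd1 level of the treated group differed by a log2 fold change of -0.17 ± 0.06 (SE), a 0.891-fold level with a 95% interval of 0.821 to 0.968, and an edgeR adjusted p of 0.234. Against Normal the difference was -0.18 ± 0.06, a 0.886-fold level with an interval of 0.816 to 0.962, and an edgeR adjusted p of 0.113. Both miss the threshold, and the 2 comparisons share the treated libraries. The unadjusted edgeR p was 0.00941 and 0.00691, and 4.02% and 6.09% of the tested genes had a smaller one. Ccnd1 was the only 1 of the 5 genes whose treated libraries did not overlap those of Model or of Normal, which 18.8% and 24.4% of all tested genes also had. The lowest Ccnd1 levels were in treated libraries 2 and 3, which are also the shallowest. Treated library 1, the deepest of all, was at 291.2 CPM, also below every Normal and Model library. Over all libraries, Pearson's r of the log2 CPM of Ccnd1 with the log2 library total was 0.73. That r includes the difference between groups, and depth as a cause of the Ccnd1 level was not tested. With all libraries thinned to the same depth, the log2 fold change was -0.19 against Model and -0.18 against Normal. Thinning keeps the expected share of each gene in its library, so it cannot show a trait of the libraries that goes with depth.

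Between Model and Normal the Ccnd1 levels differed by a log2 fold change of -0.0087 ± 0.06 (edgeR adjusted p = 1.00). The 95% interval of this difference ran from 0.916-fold to 1.08-fold.

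Myc, the other early gene, was highest in 2 treated libraries. Its level was 31.1, 33.6 and 29.1 CPM in the Normal libraries, 28.2, 31.1 and 33.0 CPM in the Model libraries and 36.4, 31.6 and 41.5 CPM in the treated libraries. Treated library 2 lay within the range of the other groups, so the groups overlapped. The mean was 36.5 ± 4.96 CPM in the treated group, against 30.8 ± 2.43 in Model and 31.3 ± 2.24 in Normal (SD, n = 3).

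The log2 fold change of Myc was 0.24 ± 0.10 against Model (1.18-fold, 95% interval 1.01 to 1.38, edgeR adjusted p = 0.347). Against Normal it was 0.22 ± 0.10 (1.17-fold, interval 0.999 to 1.36, edgeR adjusted p = 0.275). Without treated library 3 these values were 0.15 and 0.13, a smaller difference by over 1.5 times. Without treated library 2 they were larger, 0.33 and 0.31 (edgeR adjusted p = 0.368 and 0.228). Between Model and Normal the Myc difference was -0.02 ± 0.10 (edgeR adjusted p = 1.00), with an interval from 0.846-fold to 1.15-fold.

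Pcna, the replication gene, was lowest in Normal. Its level was 119.5, 118.6 and 131.9 CPM in the Normal libraries, 138.3, 133.2 and 136.1 CPM in the Model libraries and 138.3, 128.2 and 134.7 CPM in the treated libraries. The Model libraries all lay above the Normal libraries, narrowly so for Normal 3, and the treated libraries overlapped both. Model had 135.9 ± 2.57 CPM against 123.3 ± 7.39 in Normal (SD, n = 3).

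That Pcna difference was a log2 fold change of 0.14 ± 0.06, a 1.10-fold level with a 95% interval of 1.00 to 1.21 and an edgeR adjusted p of 0.999. Of all tested genes 9.12% had Model libraries that did not overlap the Normal ones, and 0% were called in this comparison. The treated group, at 133.7 ± 5.09 CPM, differed from Normal by 0.12 ± 0.06 (edgeR adjusted p = 0.342) and from Model by -0.02 ± 0.06 (edgeR adjusted p = 0.913).

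Cdk1, of the mitotic entry kinase, was close to level across the groups. It was at 140.4, 158.5 and 141.3 CPM in the Normal libraries, at 145.3, 142.2 and 160.3 CPM in the Model libraries and at 163.8, 153.6 and 135.4 CPM in the treated libraries. Every pair of groups overlapped, and the treated libraries held both the highest and the lowest value of the 9. Group means were 146.8 ± 10.2 CPM for Normal, 149.3 ± 9.70 for Model and 150.9 ± 14.4 for the treated libraries (SD, n = 3). The log2 fold changes of Cdk1 were 0.02 ± 0.08 for Model against Normal, 0.02 ± 0.08 for treated against Model and 0.04 ± 0.08 for treated against Normal, with edgeR adjusted p of 0.999, 0.945 and 0.819. The 95% intervals ran from 0.904-fold to 1.15-fold, 0.899-fold to 1.14-fold and 0.914-fold to 1.16-fold.

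Mki67, the proliferation marker, differed more between libraries of 1 group than between groups. It was at 746.1, 647.5 and 784.6 CPM in the Normal libraries, at 547.5, 840.7 and 674.3 CPM in the Model libraries and at 752.2, 693.5 and 824.0 CPM in the treated libraries. Model 1 and Model 2 were the lowest and the highest of all 9, a 1.54-fold difference inside 1 group. Group means were 726.1 ± 70.8 CPM for Normal, 687.5 ± 147.0 for Model and 756.6 ± 65.4 for the treated libraries (SD, n = 3).

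The log2 fold change of Mki67 was -0.08 ± 0.14 for Model against Normal (edgeR adjusted p = 0.999). It was 0.14 ± 0.14 for treated against Model (edgeR adjusted p = 0.728) and 0.06 ± 0.14 for treated against Normal (edgeR adjusted p = 0.867). The corresponding 95% intervals were 0.755-fold to 1.19-fold, 0.877-fold to 1.38-fold and 0.831-fold to 1.31-fold. Single libraries moved these values. Without Model 1 the log2 fold change was 0.06 for Model against Normal and -0.0026 for treated against Model, and without Model 2 it was -0.25 and 0.31 (edgeR adjusted p = 0.768 and 0.135). Leaving out Normal 2 gave -0.16 for Model against Normal and -0.012 for treated against Normal, leaving out Normal 3 gave -0.019 and 0.12, and without treated library 3 the last comparison was at -0.0046.

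Read as a group, the 5 genes did not move one way. Between Model and Normal 2 had a log2 fold change above 0 and 3 below it, with a median of -0.0087 beside -0.0024 over all tested genes. Between the treated group and Model 3 were above 0 and 2 below, with a median of 0.02 beside -0.00096. Between the treated group and Normal 4 were above 0 and 1, Ccnd1, below, with a median of 0.06 beside 0.00070. The number of members called was 0 of 5 in each comparison, where 0%, 0.919% and 2.67% of all tested genes were called. The last 2 shares, 119 and 346 genes, depended on single libraries: leaving out 1 library gave 8 to 215 and 94 to 671 genes. For Model against Normal it gave 0 to 16 genes, with 16 when Model 1 was left out.

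The 5 genes differed in how steady they were between replicates. The SD within groups on the log2 CPM scale was 0.21 for Mki67, 0.14 for Myc, 0.11 for Cdk1, 0.06 for Pcna and 0.05 for Ccnd1. For each gene the tested genes within 2-fold of its mean CPM served as a background. Mki67 had a larger SD than 97.0% of the 364 genes of like abundance, whose median was 0.08. Cdk1 exceeded 71.5% of 2716 genes and Myc 73.2% of 4501 genes. Pcna and Ccnd1 were among the steadier genes, above only 21.7% of 3028 and 17.5% of 1294 genes.

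**Figure D3:**
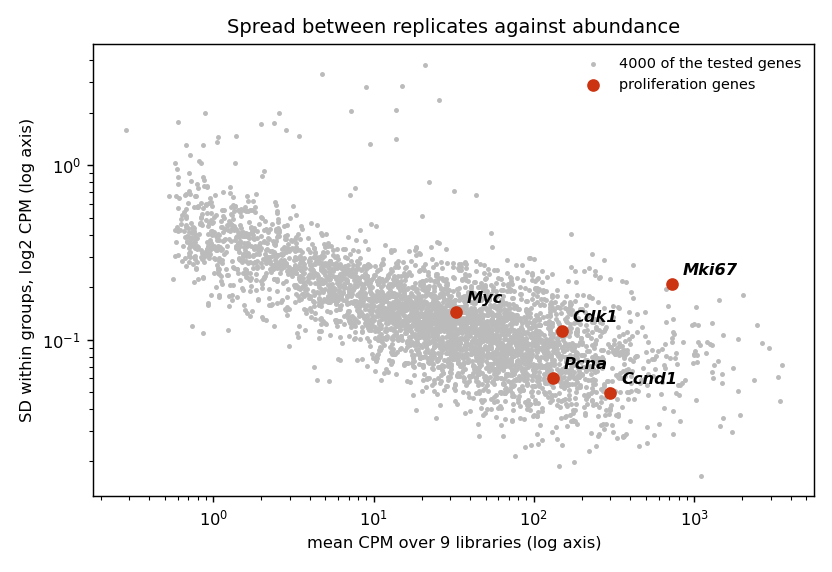
SD within groups of log2 CPM (y axis, log scale) against mean CPM over 9 libraries (x axis, log scale) for 4000 tested genes drawn at random (grey) and the 5 proliferation genes (red). Mki67, at 0.21, sits at the upper edge of genes of its abundance, while Pcna and Ccnd1 sit in the lower part.

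The spread of Mki67 was set beside gene length, and length as its cause was not tested. Dividing counts by FPKM gave each gene 1 length: 9880 bases for Mki67, 6866 for Ccnd1, 3868 for Myc, 2128 for Cdk1 and 1160 for Pcna. In 8 of 9 libraries Mki67 deviated from its own mean in the same direction as the median of the 445 tested genes over 8000 bases long. How many other tested genes match that median as often was not counted. Model 1, where Mki67 was 0.39 below its mean on the log2 scale, had a median of -0.05 for these long genes. Model 2, where Mki67 was 0.23 above its mean, had a median of 0.06. The extremes did not coincide: the long genes were lowest in Normal 2, at -0.07 with Mki67 at -0.15, and highest in treated library 3, at 0.08 with Mki67 at 0.20. Treated library 2 was the exception, with Mki67 at -0.05 and the long genes at 0.04. Among the long genes alone, the SD of Mki67 exceeded that of 78.0%.

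With a trend on length removed from each library, a step chosen after the data were seen, the within-group SD of Mki67 was 0.17 in place of 0.21. In that fit the log2 fold change of Mki67 was -0.06 for Model against Normal, 0.10 for treated against Model and 0.03 for treated against Normal. For Ccnd1, also a long transcript, the same step raised the SD from 0.05 to 0.08, and its log2 fold change was -0.19 in place of -0.17 against Model and -0.19 in place of -0.18 against Normal (edgeR adjusted p = 0.220 and 0.124).

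**Figure D4:**
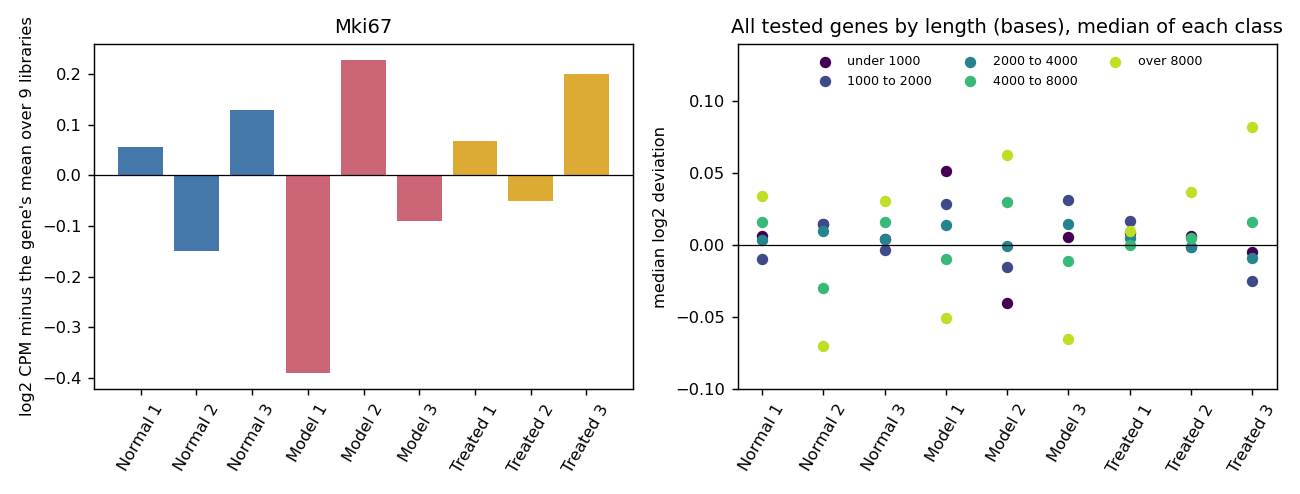
Left, log2 CPM of Mki67 in each library minus its mean over 9 libraries (bars, y axis in log2 units). Right, median of the same deviation over all tested genes in 5 classes of gene length in bases (points, y axis in log2 units). Mki67 is lowest in Model 1, at -0.39, where genes over 8000 bases have a median of -0.05, and highest in Model 2, at 0.23, where they have 0.06; the long genes themselves are lowest in Normal 2, at -0.07, and highest in treated library 3, at 0.08.

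The genes most like each member over the 9 libraries are named by identifier only. By Pearson's r of log2 CPM, the nearest of the 12942 other tested genes was ENSRNOG00000014501 for Mki67 (r = 0.987) and ENSRNOG00000055760 for Cdk1 (r = 0.976). It was ENSRNOG00000008794 for Pcna (r = 0.970) and ENSRNOG00000004414 for Ccnd1 (r = 0.984). As the highest of so many values over few libraries, these are descriptions. Of the 100 genes most like Mki67, 62% were over 5000 bases long, with a median of 5705 bases, against 14.7% and 2435 bases over all tested genes. For Ccnd1 the share was 21%, for Myc 11%, and for Cdk1 and Pcna 7% each.

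Across libraries no pair of the 5 genes had an r that passed after adjustment, and 9 libraries are too few to exclude a moderate one. Over 9 libraries the 10 pairs had Pearson's r from -0.65 (Ccnd1 and Myc) to 0.44 (Mki67 and Myc). The pair with the largest r in size, Ccnd1 and Myc, had a Spearman's rho of -0.27 (exact permutation p = 0.493). Its Pearson's r had a two-sided exact permutation p of 0.0578, or 0.578 after Benjamini-Hochberg adjustment over the 10 pairs. Without treated libraries 2 and 3, the farthest from the median of Ccnd1, that r was -0.37, so it rests in part on those libraries. As deviations from the group means the r of this pair was -0.16, so it also rests in part on differences between groups.

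Mki67 and Cdk1, the 2 mitotic genes with TTTGAA near their starts, had an r of -0.39 (exact permutation p = 0.308, adjusted 0.769) and a rho of -0.48 (exact permutation p = 0.194). Of the other tested genes 71.3% had a higher r with Mki67 than Cdk1 had. Without Normal 2 and Model 1, the libraries farthest from the median of Mki67, r was -0.71 (exact permutation p = 0.0851). Mki67 and Myc had a rho of 0.15, and r was 0.22 without the same 2 libraries.

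Within groups, as deviations from the group means, the pair with the largest r was Cdk1 and Ccnd1, at 0.85 (exact permutation within groups, p = 0.0278, adjusted over 10 pairs 0.278), where the r over all libraries was 0.25. Both genes were highest in library 1 and lowest in library 3 of the treated group. Both were also highest in Normal 2 among the Normal libraries and in Model 3 among the Model libraries. Treated library 1, Normal 2 and Model 3 were each the deepest library of their group, but Normal 2 only narrowly. It held 13552435 counts against 13512517 in Normal 1. Between Normal 2 and Normal 1, Cdk1 was at 158.5 against 140.4 CPM and Ccnd1 at 318.3 against 312.1 CPM. The shallowest libraries were treated library 2 and Model 1, whereas both genes were lowest in treated library 3 and Model 2. In Normal the shallowest library, Normal 3, was lowest for Ccnd1 but not for Cdk1. Over all libraries, the r of log2 CPM with the log2 library total was 0.73 for Ccnd1 and 0.47 for Cdk1. Whether depth lies behind the shared pattern was not tested. Across the 10 pairs 0 passed an adjusted exact permutation p of 0.05, with or without the group means removed.

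**Figure D5:**
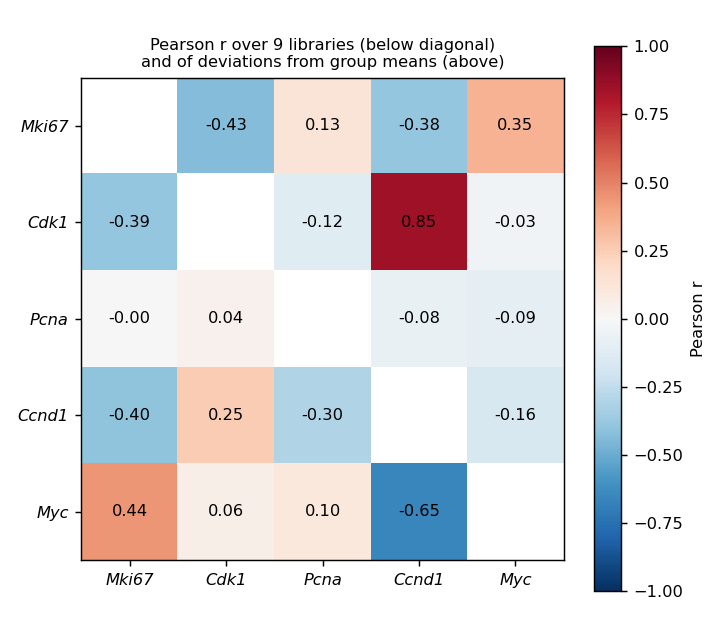
Pearson's r of log2 CPM between the 5 genes over 9 libraries (below the diagonal) and of deviations from group means (above the diagonal), colour from -1 to 1. The largest values in size are -0.65 for Ccnd1 and Myc below the diagonal and 0.85 for Cdk1 and Ccnd1 above it.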

How the data were processed

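Per the labels' protocols, stranded total RNA libraries were made from column-extracted RNA of 9 samples, 3 per group. The submitters' processing notes name CASAVA 1.8 and the build mRatBN7.2. The annotation release, strand setting, counter and aligner are not given in sources used here. The authors deposited whole-number read counts per gene and FPKM values, per the file headers. Counts entered all tests, and FPKM gave levels between genes and gene lengths. The lncRNA table was not used here. Members and lists were chosen with earlier results of these data known.

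Counts were tested with edgeR 4.0.16 in R 4.3.3: filterByExpr (minimum count 10), TMM factors (0.992 to 1.01), robust estimateDisp and glmQLFit, glmQLFTest, 1 fit of 9 libraries with group as the only term, Benjamini-Hochberg adjustment over 12943 genes. The SE is the size of the log2 fold change divided by the square root of F. The 95% intervals use the total degrees of freedom of the test, residual plus prior. Log2 CPM used a prior count of 2. The fit was tested on simulated data. Alternatives were DESeq2 1.42.0, other scalings, no filter, 2 groups only, a replicate block, thinning, no robust settings, each library left out and, added after the data were seen, a length trend removed. Replicate pairs differed by more than sampling noise (chi-square per degree of freedom 3.99 to 11.9). The text names the 5 members and, for the first 4, the gene with the highest Pearson's r. Lists of other cell cycle genes and of cell type markers were not scored, since 0 Ensembl identifiers are in the reference gene table (GRCr8).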

Additional observations from a re-analysis of the deposited data

How the results depend on the processing

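No alternative called a member: of 285 refits of the 15 differences, 0 had an adjusted p below 0.05, and the smallest was 0.0783, for Ccnd1 in the treated group against Normal without Normal 3. The sign of the log2 fold change turned in 17 refits. One of these was Mki67 for treated against Model, at 0.14 in the main fit and -0.0026 without Model 1. Leaving out 1 library moved the log2 fold change of Model against Normal from -0.25 to 0.061 for Mki67, -0.030 to 0.073 for Cdk1 and -0.075 to 0.036 for Myc. For treated against Model it ran from -0.0026 to 0.31 for Mki67, -0.049 to 0.092 for Cdk1 and -0.049 to 0.0068 for Pcna, and for treated against Normal from -0.012 to 0.12 for Mki67 and -0.024 to 0.11 for Cdk1. Ccnd1 in Model against Normal was 0.0051 with no filter, 0.0019 thinned and 0.0025 with the length trend removed. Ccnd1 stayed below 0 and Myc above 0 in the treated group in all 19 alternatives of both comparisons.

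The r of Mki67 and Pcna was 0.13 within groups, 0.12 without 2 libraries and 0.011 on library totals. That of Cdk1 and Pcna was -0.12 within groups and -0.48 without 2 libraries, and that of Cdk1 and Myc -0.035 and -0.26. Pcna and Ccnd1 had 0.35 without 2 libraries, and Pcna and Myc -0.088 within groups and a rho of -0.05. The cause of these turns was not tested. With the replicate block 0 members were called. The numbers are not taken as pairs because the labels do not say that they pair libraries. Deviations of same-numbered libraries correlated at -0.01 to 0.28 and of others at -0.20 to 0.11. Deviations within a group sum to 0, so the 2 ranges depend on each other and do not settle whether libraries were paired. Over all genes the calls were 119 for treated against Model and 346 for treated against Normal, against 203 and 517 by DESeq2 and 47 and 302 with the replicate block. Treated against Model had 8 calls without treated library 2, 15 without Model 3 and 215 without Model 2, and treated against Normal 94 without treated library 2 and 671 without Normal 3.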
